A study of Homo sapiens with 39 samples.

Results

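The SR splicing factor family was followed as the 10 genes SRSF1, SRSF2, SRSF3, SRSF4, SRSF5, SRSF6, SRSF7, SRSF9, SRSF10 and SRSF11, taken by exact symbol from 21530 symbols in the polysome table, 26334 symbols in the RNA immunoprecipitation tables and the gene column of the PAR-CLIP cluster lists. All 10 were present in each of the 3 assays. SR proteins carry RNA recognition motifs and a tail rich in arginine and serine. They bind exonic enhancers and help recruit U1 snRNP to the 5′ splice site and the U2AF heterodimer to the 3′ splice site, where U2AF1, the small subunit, reads the AG at the end of the intron. Several of them also shuttle to the cytoplasm, export mRNA and act in translation, and many SR genes hold conserved alternative exons that carry a premature stop codon and limit their own expression.

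Human bronchial epithelial cells (HBEC) of 3 lines were studied: a line with the U2AF1 S34F mutation (S34F), a line labelled Frame Shift (FS) and a wild-type line (WT). The allele that holds the frame shift is not stated, nor is it stated whether a line is a single clone. Each line gave 8 polysome libraries, from monosomes, from fractions of 2 to 7 ribosomes and from a pooled fraction of 8 to 10 ribosomes, and 3 RNA immunoprecipitation (RIP-seq) libraries, from the U2AF1 precipitate (IP), from the precipitate with control immunoglobulin (IgG) and from RNA of the cytosol (Cytosol). In PAR-CLIP, a thiouridine crosslinked to a bound protein is read as a T-to-C conversion. It was run on Flp-In-293, a line made from HEK 293, carrying U2AF1 with a FLAG-HA tag. The cytoplasm of S34F cells, the cytoplasm of WT cells and the chromatin of WT cells gave 1 deposited list each, in which 2 replicates were pooled. The labels do not mention removal of the U2AF1 of the host cells. Every polysome or RIP group held 1 library per line, and no list had a replicate.

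Total counts ran from 2440145 to 13367574 in the 24 polysome libraries and from 2582141 to 29769968 in the 9 RIP libraries. A count of 0 allows up to 3 counts, or 0.224 to 1.23 CPM (counts scaled to a library total of 1e6) in the polysome libraries. Basal airway markers were present for 8 of 8 genes, with a summed level of 6272 to 13676 CPM over the polysome libraries, whereas the summed levels of fibroblast, leukocyte, endothelial and ciliated or secretory markers stayed at or below 36.4 CPM. U2AF1 mRNA stood at 21.4 CPM in S34F Cytosol, 54.7 CPM in FS Cytosol and 53.9 CPM in WT Cytosol. In these bulk libraries, fewer cells with an mRNA and less of it per cell cannot be told apart.

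In cytosolic RNA, the member with the highest level per transcript length was SRSF9, an SR protein with paired RNA recognition motifs, at 25.7 RPKM (reads scaled to transcript length and library total) in S34F, 33.3 RPKM in FS and 34.3 RPKM in WT. SRSF4, a large SR protein with a long arginine-serine tail, followed at 10.2 ± 1.52 RPKM (SD, n = 3 lines), and SRSF3, the smallest member and an mRNA export adaptor, at 10.1 ± 0.46 RPKM. The ranges of SRSF4 and SRSF3 over the lines overlapped, while SRSF9 lay above both in every line. SRSF2 at 7.32 ± 1.95 RPKM, SRSF7 at 6.29 ± 1.59 RPKM and SRSF6 at 5.64 ± 0.68 RPKM formed a run in which neighbours overlapped. SRSF5 at 4.20 ± 0.86 RPKM and SRSF1 at 4.14 ± 0.71 RPKM also overlapped. At the low end, SRSF10 had 0.466 ± 0.036 RPKM and SRSF11 had 0.464 ± 0.28 RPKM, with overlapping ranges. The RPKM values are the authors' own and rest on exonic lengths from 668 bases for SRSF9 to 8213 bases for SRSF10. By CPM, which leaves length out, the order differed. SRSF3 had the highest mean in Cytosol at 118 ± 7.80 CPM, and SRSF9 had 66.9 ± 8.36 CPM (SD, n = 3 lines). SRSF4, SRSF1 and SRSF6 also had higher mean CPM than SRSF9. Opposite-strand genes overlap SRSF9 (GATC), SRSF2 (MFSD11) and SRSF5 (LOC100289511) in the coordinates of the RIP tables. Strand use in counting is not stated, so reads of these pairs cannot be told apart. The listed bounds of MIR5096 span SRSF10, SRSF4 and SRSF11, which start at 24290836, 29474249 and 70671364 on chromosome 1. Bounds that wide do not show an overlap with any of these members.

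Toward the heavy end of the gradient, 4 of the 10 members rose in the 8-10 fraction over monosomes, and none fell, by edgeR's quasi-likelihood test with the line as a block and Benjamini-Hochberg adjustment over 15945 genes. Of all genes tested, 28.3% were called higher and 21.6% lower, so 4 of 10 is not far from the background share. The called members were SRSF3, SRSF4, SRSF7 and SRSF9. They were also called, at lower log2 fold changes of 0.69, 0.58, 0.82 and 1.41, when 5 to 8-10 ribosomes were set against 1 and 2. The median log2 fold change of the members was 1.01, against 0.08 for all genes. CPM gives each fraction the same total, so these are shares of the RNA of a fraction and not amounts.

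SRSF4 had 64.4, 64.1 and 42.2 CPM in the 8-10 fraction of S34F, FS and WT, against 13.3, 14.3 and 18.1 CPM in their monosomes. Every 8-10 library lay above every monosome library, and the log2 fold change was 1.97 ± 0.29 (SE; edgeR adjusted p = 3.3e-05). SRSF7, a shuttling member with a zinc knuckle, had 131, 142 and 90.1 CPM in the 8-10 fraction of S34F, FS and WT, against 29.2, 50.1 and 42.6 CPM in monosomes. Its groups did not overlap either (1.71 ± 0.28, edgeR adjusted p = 8.0e-05).

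**Figure D1:**
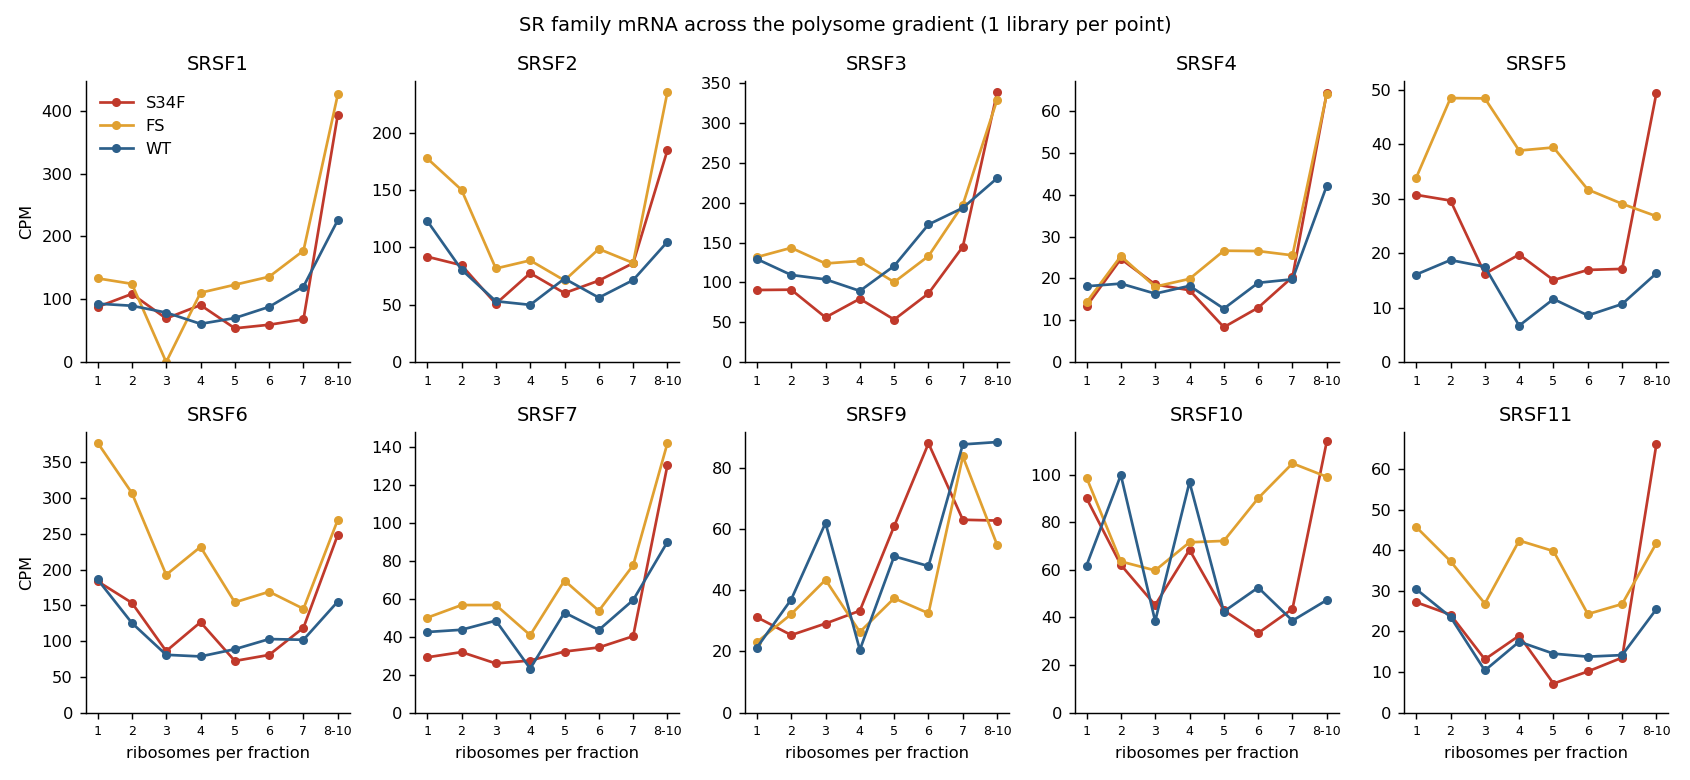
CPM (y axis, linear, from 0) of each of the 10 SR genes over the 8 gradient fractions (x axis, ribosomes per fraction) in S34F, FS and WT, with 1 library per point. SRSF1, SRSF3, SRSF4 and SRSF7 peak in the 8-10 fraction in all 3 lines, SRSF9 climbs earlier, and SRSF2, SRSF6 and SRSF11 stand above their inner fractions at both ends in S34F and WT.

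SRSF3 had 338, 329 and 231 CPM in the 8-10 fraction of S34F, FS and WT, against 90.4, 132 and 129 CPM in monosomes. The lowest 8-10 library exceeded the highest monosome library, with a log2 fold change of 1.5 ± 0.30 (edgeR adjusted p = 3.6e-04). SRSF9 had 62.7, 54.7 and 88.3 CPM in the 8-10 fraction of S34F, FS and WT, against 31.2, 23.0 and 21.2 CPM in monosomes (1.61 ± 0.40, edgeR adjusted p = 0.0022). The groups were again apart, but without the WT line SRSF9 was no longer called (1.17 ± 0.48, edgeR adjusted p = 0.0594).

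SRSF1, the prototype of the family and a factor known to act in splicing and translation, had 394, 426 and 226 CPM in the 8-10 fraction of S34F, FS and WT, against 87.7, 133 and 93.0 CPM in monosomes. These groups did not overlap, yet the test missed its threshold (1.85 ± 0.80, edgeR adjusted p = 0.0572). The FS library of 3 ribosomes lists SRSF1 at 0, beside 125 CPM in FS at 2 ribosomes and 110 CPM at 4 ribosomes. In a fit without that library, added after the data were seen, SRSF1 was called (1.88 ± 0.31, edgeR adjusted p = 9.4e-05), as it was when only 8-10 and monosome libraries were fitted (1.77 ± 0.31, edgeR adjusted p = 1.9e-04). It was also called with no filter on low counts (2.14 ± 0.71, edgeR adjusted p = 0.0161) and without the FS line (1.88 ± 0.43, edgeR adjusted p = 0.0041). DESeq2, DESeq2 size factors in edgeR, the edgeR fit without the block and the fits without the WT or the S34F line did not call it. When 5 to 8-10 ribosomes were set against 1 and 2, SRSF1 was not called either (0.53 ± 0.49, edgeR adjusted p = 0.359).

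The other 5 members were not called between the gradient ends. SRSF6, which like SRSF4 and SRSF5 has paired RNA recognition motifs, had 249, 270 and 155 CPM in the 8-10 fraction of S34F, FS and WT, against 184, 377 and 186 CPM in monosomes (0.02 ± 0.30, edgeR adjusted p = 0.951). SRSF2, a nuclear member that binds exonic enhancers, had 185, 236 and 105 CPM in the 8-10 fraction of S34F, FS and WT, against 91.8, 178 and 123 CPM in monosomes (0.50 ± 0.31, edgeR adjusted p = 0.175). For both genes the 8-10 and monosome libraries overlapped. With no filter on low counts SRSF2 was called (0.78 ± 0.31, edgeR adjusted p = 0.0476). SRSF10, which represses splicing when dephosphorylated in heat shock, had a log2 fold change of 0.15 ± 0.27 (edgeR adjusted p = 0.651). SRSF5 had 0.32 ± 0.34 (edgeR adjusted p = 0.436) and SRSF11, an SR-related regulator with 1 RNA recognition motif, 0.51 ± 0.32 (edgeR adjusted p = 0.186).

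Between the middle fractions, which are other libraries of the same gradients, 2 members were higher at 6-7 than at 2-3 ribosomes and none was lower. Of all genes, 20.8% were called higher and 12.8% lower. SRSF9 had 87.9, 32.4 and 47.8 CPM at 6 ribosomes and 63.0, 83.6 and 87.5 CPM at 7 ribosomes in S34F, FS and WT. At 2 ribosomes it had 25.3, 32.1 and 36.9 CPM and at 3 ribosomes 29.1, 43.4 and 61.9 CPM in S34F, FS and WT. SRSF9 was thus higher at 6-7 ribosomes in each line by its mean over the fractions (0.94 ± 0.28, edgeR adjusted p = 0.0124). SRSF3 was the other called member (0.66 ± 0.21, edgeR adjusted p = 0.0180). Neither call held without the S34F line (SRSF9 at 0.44 ± 0.24 with an edgeR adjusted p of 0.193, SRSF3 at 0.53 ± 0.26 with 0.150), and SRSF3 was also lost without the WT line (0.48 ± 0.23, edgeR adjusted p = 0.173). Without the line as a block only SRSF9 was called, since SRSF3 then had an edgeR adjusted p of 0.0697.

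SRSF5 pointed the other way between the middle fractions, at -0.57 ± 0.25, and missed the threshold (edgeR adjusted p = 0.0754). It was lower at 6-7 than at 2-3 ribosomes in all 3 lines. SRSF6 and SRSF11 were also lower there in all 3 lines, at -0.17 ± 0.21 and -0.26 ± 0.23, and were not called (edgeR adjusted p = 0.566 and 0.417). DESeq2 called SRSF5 lower (-0.66 ± 0.25, adjusted p = 0.0293). The remaining members were not called, with log2 fold changes of 0.52 ± 0.56 for SRSF1, 0.33 ± 0.20 for SRSF7, 0.09 ± 0.22 for SRSF2, 0.09 ± 0.20 for SRSF4 and 0.01 ± 0.19 for SRSF10.

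From monosomes to 2-3 ribosomes no member was called in edgeR, where 2.96% of all genes were called higher and 0.176% lower. At an unadjusted p under 0.05, 2 members passed in edgeR and 4 in DESeq2, which called 0 after adjustment. Log2 fold changes at 2-3 ribosomes over monosomes were above 0 for SRSF9 (0.82 ± 0.36), SRSF4 (0.61 ± 0.26), SRSF7 (0.32 ± 0.24), SRSF5 (0.30 ± 0.30) and SRSF3 (0.04 ± 0.26). They were below 0 for SRSF6 (-0.51 ± 0.25), SRSF2 (-0.50 ± 0.26), SRSF11 (-0.49 ± 0.28), SRSF10 (-0.25 ± 0.23) and SRSF1 (-0.21 ± 0.68).

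The step from 7 ribosomes to the pooled 8-10 fraction was compared after the profiles had been seen. At this step 3 members were higher in the 8-10 fraction and none was lower, with 14.5% of all genes called higher and 14.5% lower. SRSF4 rose by 1.14 ± 0.28 (edgeR adjusted p = 0.00352), SRSF11 by 1.12 ± 0.33 (edgeR adjusted p = 0.0113) and SRSF7 by 0.84 ± 0.28 (edgeR adjusted p = 0.0231). The median over all genes was -0.15 here, and over the members 0.70. SRSF9 lay on the other side, at -0.40 ± 0.39 (edgeR adjusted p = 0.482). The other members not called had 1.32 ± 0.79 (SRSF1), 0.80 ± 0.31 (SRSF2), 0.60 ± 0.30 (SRSF6), 0.54 ± 0.30 (SRSF3), 0.53 ± 0.35 (SRSF5) and 0.34 ± 0.27 (SRSF10). SRSF1 was called without the FS library of 3 ribosomes (1.32 ± 0.31, edgeR adjusted p = 0.00221) and without the FS line (1.43 ± 0.42, edgeR adjusted p = 0.0233). It was also called with only the libraries compared (1.47 ± 0.37, edgeR adjusted p = 7.5e-04), but not by DESeq2 or with no filter on low counts. With no filter on low counts SRSF2 (1.05 ± 0.31, edgeR adjusted p = 0.0137) and SRSF6 (0.85 ± 0.31, edgeR adjusted p = 0.0442) were called, and DESeq2 called both as well (adjusted p = 0.00833 for SRSF2 and 0.0311 for SRSF6). Without the S34F line only 1 member was called, with SRSF11 at 0.69 ± 0.33 (edgeR adjusted p = 0.172) and SRSF7 at 0.70 ± 0.32 (edgeR adjusted p = 0.155). Without the FS line SRSF7 was not called (0.93 ± 0.39, edgeR adjusted p = 0.110), and without the block only SRSF4 was.

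**Figure D2:**
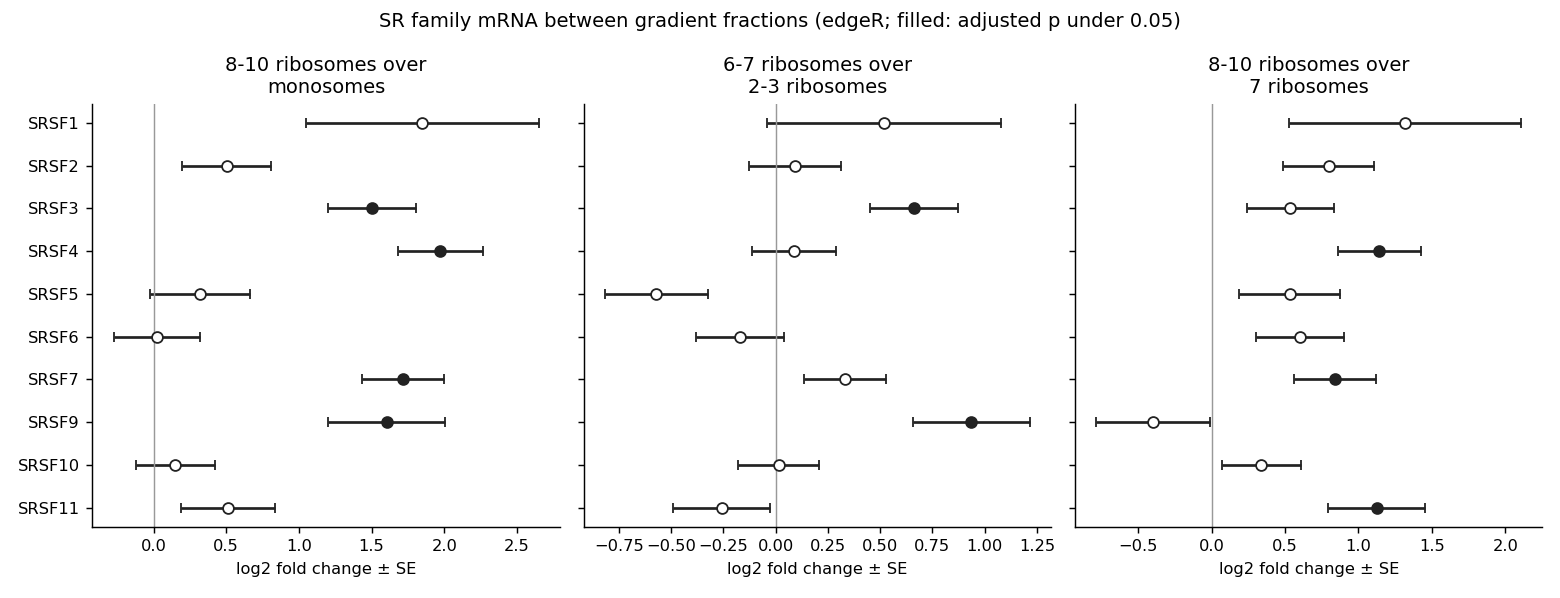
Log2 fold change with its standard error (x axis) for each SR gene (y axis) in 3 comparisons of gradient fractions, from 1 edgeR fit of 24 libraries; filled points have an adjusted p under 0.05. SRSF3, SRSF4, SRSF7 and SRSF9 are filled at 8-10 ribosomes over monosomes, SRSF3 and SRSF9 at 6-7 over 2-3, and SRSF4, SRSF7 and SRSF11 at 8-10 over 7.

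Genes that work with SR proteins were counted in the same fit, from a list of 31 that held the TRA2 splicing activators, the SR protein kinases (SRPK and CLK), the importer TNPO3 and other proteins with arginine-serine domains. At 8-10 ribosomes over monosomes, 8 of the 31 were higher and 1 lower, beside 28.3% higher and 21.6% lower of all genes. TRA2B and TRA2A, which bind exonic enhancers, rose by 1.76 ± 0.34 (edgeR adjusted p = 2.8e-04) and 1.55 ± 0.29 (edgeR adjusted p = 2.2e-04). PNN, a nuclear speckle protein, rose by 1.33 ± 0.41 (edgeR adjusted p = 0.00936), and SRSF12, a paralog of SRSF10, fell by 1.81 ± 0.46 (edgeR adjusted p = 0.00249). The median of the list was 0.45.

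At 6-7 over 2-3 ribosomes, 3 of the 31 were higher and 5 lower, beside 20.8% higher and 12.8% lower of all genes. LUC7L3, a U1 snRNP associated protein, fell by 1.34 ± 0.33 (edgeR adjusted p = 0.00333), SCAF1 rose by 0.93 ± 0.23 (edgeR adjusted p = 0.00343), RNPS1 of the exon junction complex rose by 0.83 ± 0.23 (edgeR adjusted p = 0.00665) and ARGLU1 fell by 0.82 ± 0.30 (edgeR adjusted p = 0.0371). PNN and SCAF11 were also called lower at 6-7 over 2-3 ribosomes, at -0.76 ± 0.29 (edgeR adjusted p = 0.0446) and -0.81 ± 0.19 (edgeR adjusted p = 0.00199). At 2-3 ribosomes over monosomes 0 of the 31 were called by edgeR, with 3 at an unadjusted p under 0.05 and 2 called by DESeq2. At 8-10 over 7 ribosomes 8 of the 31 were higher and none lower, beside 14.5% of all genes in each direction, led by the kinase SRPK1 (1.65 ± 0.33, edgeR adjusted p = 6.3e-04), PNN (1.5 ± 0.41, edgeR adjusted p = 0.00697), U2SURP (1.45 ± 0.37, edgeR adjusted p = 0.0041) and SCAF11 (1.33 ± 0.27, edgeR adjusted p = 6.5e-04).

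The shape of each profile was read from 1 library per line and fraction, which allows no test between lines. In S34F 9 of the 10 members had their highest CPM in the 8-10 fraction, in FS 5 and in WT 5. The same held for 41.0% of genes in S34F, 29.0% in FS and 27.4% in WT. Monosomes and the 8-10 fraction both stood above all 6 inner fractions for 5 members in S34F, 1 in FS and 3 in WT, against 12.2%, 6.01% and 6.17% of genes. SRSF11 showed the pattern in S34F, where it had 27.2 CPM in monosomes and 66.2 CPM in the 8-10 fraction beside 7.2 CPM at 5 ribosomes.

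A position index, the CPM-weighted mean ribosome number with 9 for the pooled fraction, summarised each profile for 9501 genes. By its mean over the lines, 5 members lay at 5.45 or above and 5 at 4.87 or below. SRSF1 had 5.93 in S34F, 5.96 in FS and 5.45 in WT, SRSF7 had 5.98, 5.46 and 5.25, SRSF4 had 5.72, 5.66 and 5.29, SRSF3 had 5.96, 5.40 and 5.30, and SRSF9 had 5.44, 5.35 and 5.57 in the same lines. Over the lines these 5 stood between the 78.0 and 98.5 percentile of genes. The 98.5 percentile is that of SRSF1 in FS, whose index takes in the 0 CPM listed at 3 ribosomes. The other 5 averaged 4.87 (SRSF2), 4.78 (SRSF11), 4.59 (SRSF10), 4.52 (SRSF5) and 4.51 (SRSF6) over the lines, between the 17.5 and 77.1 percentile. The median of all genes was 4.94 in S34F, 4.82 in FS and 4.76 in WT. The SRSF10 profile was uneven, with 99.9 CPM in WT at 2 ribosomes and 96.9 CPM at 4 ribosomes beside 38.5 CPM at 3 ribosomes.

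Between lines, the index was higher in S34F than in WT for 9 of 10 members, as for 58.2% of all genes. The median difference of S34F over WT was 0.57 for the members and 0.08 for all genes. SRSF11 differed most, with 5.42 in S34F against 4.42 in WT, and SRSF9 was the exception, with 5.44 in S34F against 5.57 in WT. FS was higher than WT in 7 of 10 members, as for 62.8% of genes, with medians of 0.16 and 0.09. Fractions of 1 gradient share a culture, so these differences have no replicate check.

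The largest ratios of mean levels over the 8 fractions were those of SRSF5 and SRSF6 in FS over WT. SRSF5 averaged 37.0 CPM in FS against 13.3 CPM in WT, with a log2 ratio of 1.48, and was higher in FS in 8 of 8 fractions. SRSF6 averaged 231 CPM in FS against 115 CPM in WT (1.01, 8 of 8 fractions). SRSF11 at 35.6 CPM in FS against 18.7 CPM in WT (0.93) and SRSF7 at 68.5 CPM in FS against 50.5 CPM in WT (0.44) were also higher in every fraction. At least 2-fold higher means in FS were found for 2 of 10 members and 15.9% of genes, and higher values in all 8 fractions for 4 of 10 members and 28.3% of genes. The median over all genes was 0.15 on this scale and -0.08 with TMM-scaled CPM. No member was lower in FS in all 8 fractions or 2-fold lower on average, against 11.6% and 4.82% of genes. After TMM scaling the shares of genes at least 2-fold higher and at least 2-fold lower in FS were alike, at 9.43% and 9.71%, with 1 member (SRSF5) and none, and 2 members were higher in all 8 fractions, as were 20.7% of genes. On that scale SRSF5 (1.24) and SRSF11 (0.73) kept higher values in 8 of 8 fractions, SRSF6 (0.78) in 7 and SRSF7 (0.16) in 5, and the mean of SRSF3 changed sign, with -0.11 in place of 0.16.

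In the RIP tables, SRSF5 stood at 19.0 CPM in FS Cytosol against 21.8 CPM in WT Cytosol, the opposite order to that in polysomes. The other 3 members higher in every FS fraction were also higher in FS Cytosol, with 82.4 CPM in FS against 67.8 CPM in WT for SRSF6, 62.5 CPM in FS against 49.9 CPM in WT for SRSF7 and 3.86 CPM in FS against 1.81 CPM in WT for SRSF11. In S34F, SRSF5 averaged 24.3 CPM against 13.3 CPM in WT (0.88, higher in 7 of 8 fractions), while Cytosol held 15.2 CPM in S34F against 21.8 CPM in WT. No member reached a 2-fold difference between S34F and WT polysomes, where 4.52% of genes were at least 2-fold higher and 3.17% at least 2-fold lower. No member was higher or lower in S34F in all 8 fractions, against 6.64% and 6.87% of genes. Levels in the polysome and RIP tables were made separately. SRSF4 averaged 83.8 ± 13.1 CPM over the Cytosol libraries (SD, n = 3 lines) but 22.5 CPM in S34F, 27.5 CPM in FS and 20.6 CPM in WT polysomes, whereas SRSF10 had 12.4 ± 1.22 CPM in Cytosol but 62.5, 82.5 and 59.8 CPM in polysomes of the same lines.

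Profiles of the members were compared over the 24 polysome libraries as log2 CPM centred within each line, as a description, since the points share gradients and depth. Over 45 pairs of members Pearson's r had a median of 0.45 and was above 0 in 41 pairs. Pairs of other genes were not compared, so these values do not show a likeness particular to the family. The SRSF1 profile takes in the 0 CPM listed in FS at 3 ribosomes. SRSF3 and SRSF7, both shuttling members, had the highest value at 0.863, followed by SRSF2 with SRSF6 at 0.857 and SRSF6 with SRSF11 at 0.856. SRSF9 ran opposite to SRSF10 (-0.39), SRSF11 (-0.29) and SRSF6 (-0.27). Outside the family, the profiles most like the mean of the members, among 7769 genes at 20 CPM or more, were those of CD47 (0.950), CNN3 (0.944), MOB1A (0.940), ACTR3 (0.939) and CIRH1A (0.939).

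In RIP-seq, no member was called between U2AF1 IP and IgG, IP and Cytosol or IgG and Cytosol, by edgeR's quasi-likelihood test over 11612 genes with the line as a block. For IP over IgG, 0.224% of all genes passed upward and 1.12% downward. For IP over Cytosol these shares were 0.491% and 0.0431%, and for IgG over Cytosol 0.663% and 0.0172%. In each comparison 1 member had an unadjusted p under 0.05 in edgeR and 1 in DESeq2, which called 0 after adjustment. The spread left between libraries after the line effect was wide, with a biological coefficient of variation of 69.8% against 32.9% in the polysome libraries.

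SRSF4 had 114, 88.3 and 85.2 CPM in IP of S34F, FS and WT, against 27.9, 27.3 and 60.6 CPM in IgG and 93.2, 68.8 and 89.3 CPM in Cytosol. IP exceeded IgG in every line, with groups that did not overlap, and missed the threshold (1.20 ± 0.38, edgeR adjusted p = 0.173). IP and Cytosol of SRSF4 overlapped (0.20 ± 0.37, edgeR adjusted p = 0.958). IgG of SRSF4 lay below Cytosol in every line (-1.01 ± 0.38, edgeR adjusted p = 0.523). SRSF5 had 39.1, 24.1 and 42.8 CPM in IP of S34F, FS and WT, against 26.6, 17.2 and 14.8 CPM in IgG and 15.2, 19.0 and 21.8 CPM in Cytosol. It was the only member with IP above both IgG and Cytosol in all 3 lines (0.67 ± 0.60 over IgG, edgeR adjusted p = 0.708; 0.85 ± 0.60 over Cytosol, edgeR adjusted p = 0.834). The share of all genes with the same order of RIP libraries in all 3 lines was not computed, for this or other members.

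**Figure D3:**
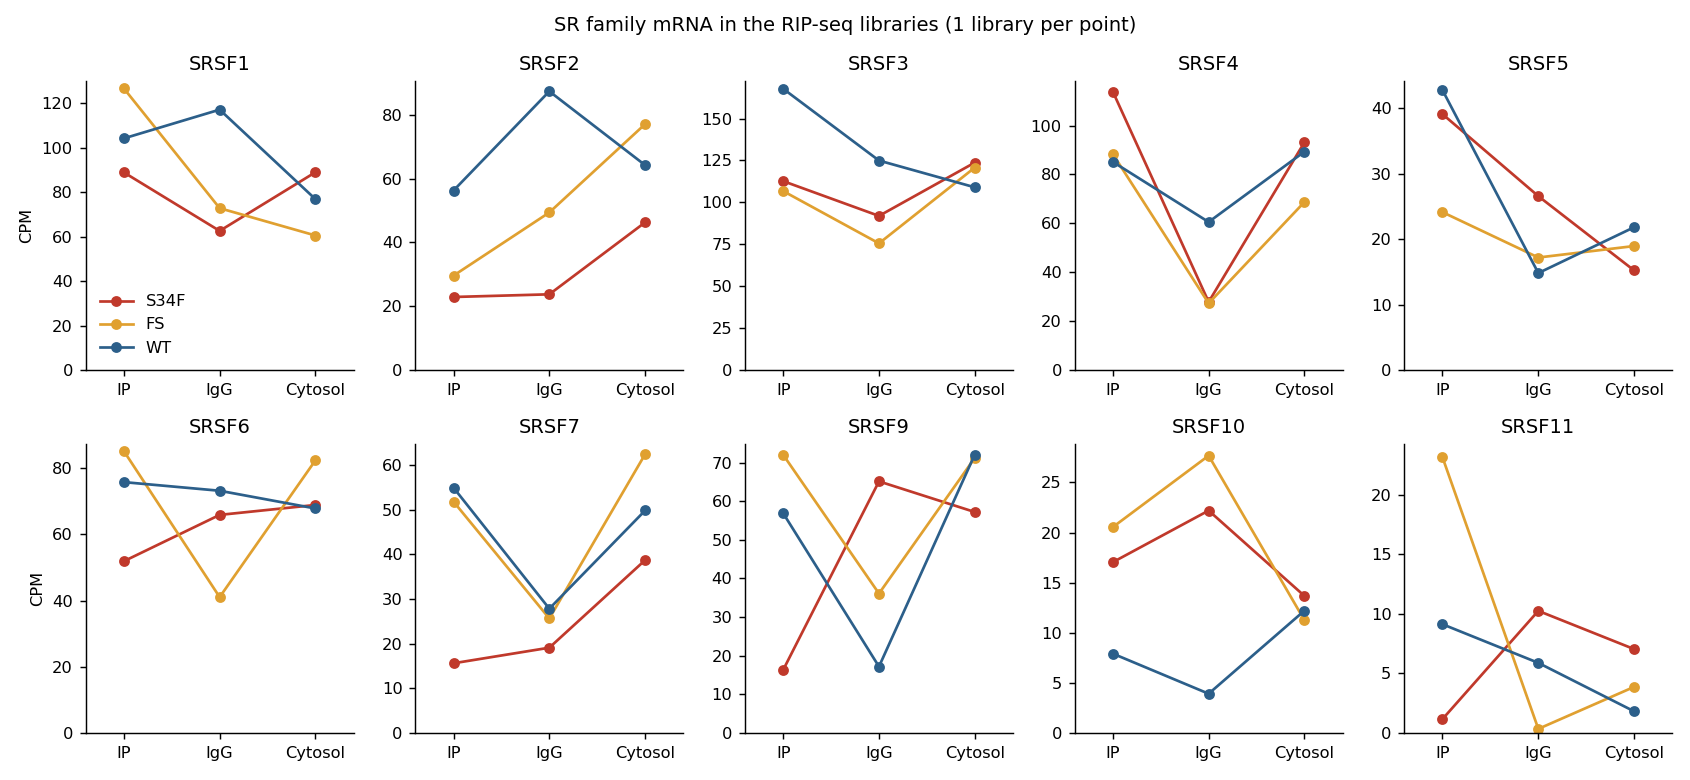
CPM (y axis, linear, from 0) of each SR gene in IP, IgG and Cytosol (x axis) of S34F, FS and WT, with 1 library per point. SRSF4, SRSF3 and SRSF5 stand higher in IP than in IgG in all 3 lines, SRSF2 lower, and SRSF9 and SRSF11 differ in direction between lines.

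SRSF3 was also above IgG in IP of all 3 lines, with 113, 107 and 168 CPM in IP against 92.0, 75.6 and 125 CPM in IgG of S34F, FS and WT (0.23 ± 0.29, edgeR adjusted p = 0.809). SRSF2 was lower in IP in all 3 lines, with 22.9, 29.6 and 56.2 CPM in IP of S34F, FS and WT, against 23.8, 49.4 and 87.3 CPM in IgG and 46.3, 77.0 and 64.2 CPM in Cytosol (-0.67 ± 0.42 over IgG, edgeR adjusted p = 0.544). SRSF9 had no shared direction, with 16.3, 72.0 and 56.9 CPM in IP against 65.1, 36.1 and 17.2 CPM in IgG of S34F, FS and WT. SRSF11 ranged from 0.338 CPM (1 count) in FS IgG to 23.1 CPM in FS IP, and held at most 10.2 CPM in the other RIP libraries. The log2 fold changes of IP over IgG were 0.93 ± 1.64 for SRSF11, 0.43 ± 0.47 for SRSF7, 0.20 ± 0.34 for SRSF1, 0.08 ± 0.57 for SRSF9, 0.05 ± 0.36 for SRSF6 and -0.26 ± 0.82 for SRSF10, and none was called. Of the 29 SR-related genes tested, 0 were called by edgeR in any of the 3 comparisons, with 5, 2 and 2 at an unadjusted p under 0.05 and 1 called by DESeq2 in each.

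PAR-CLIP clusters of tagged U2AF1 lay on 9 of the 10 members with S34F protein in cytoplasm, on 10 with WT protein in cytoplasm and on 10 with WT protein in chromatin. They numbered 100 of 28828 clusters for S34F cytoplasm, 85 of 26613 for WT cytoplasm and 232 of 92895 for WT chromatin. The median fraction of T-to-C conversion of member clusters was 0.704, 0.632 and 0.892 in these lists. Medians of all clusters were higher, at 0.833, 0.837 and 1. Members took 3961 rpm (reads per 1e6 reads of the list) in S34F cytoplasm (95% exact binomial interval 3811 to 4116), 3389 in WT cytoplasm (3234 to 3550.02) and 5016 in WT chromatin (4952 to 5080.04). These intervals cover counting error only, and pooled replicates leave no spread to test against. They take each read as independent, although reads repeat. The SRSF5 cluster with the most reads in S34F cytoplasm held 157 reads, of which 83 were distinct. The intervals given here and below may thus be too narrow. The rpm values are shares, and the rest of each list differs. Clusters with annotations other than UTRs, codons, coding exons, introns and their junctions held 42.0%, 31.3% and 9.41% of all reads in these lists. No RNA levels of these cells were set beside the reads. Of 417 member clusters, 414 lay inside the gene bounds of the RIP tables on the same strand.

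**Figure D4:**
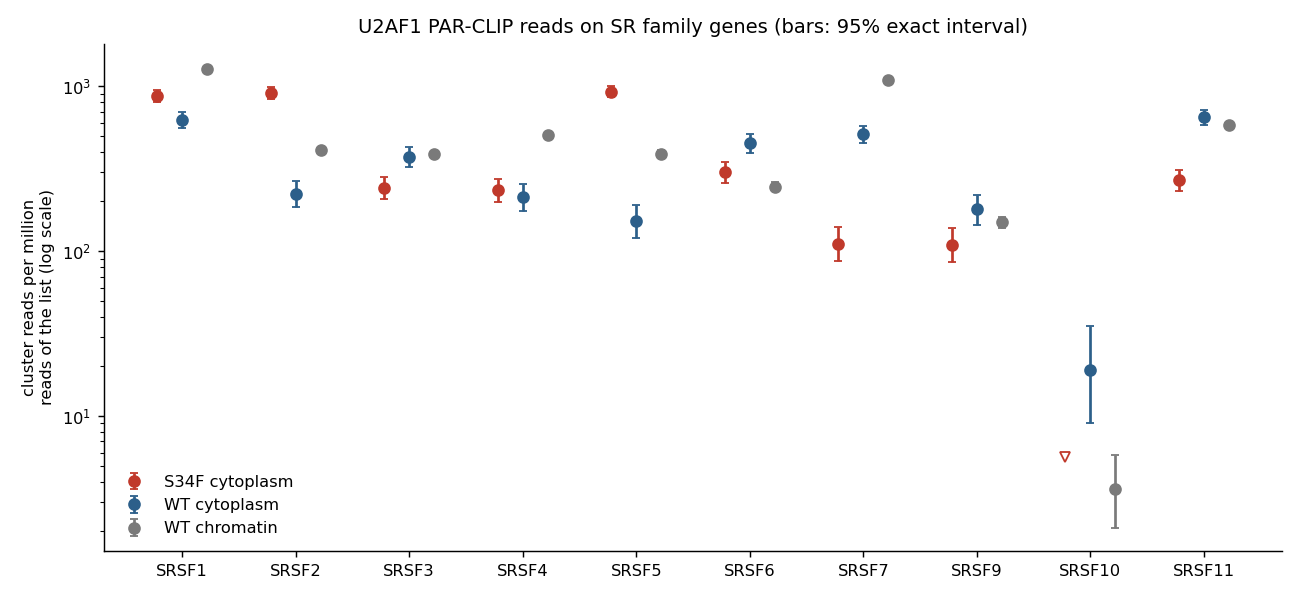
U2AF1 PAR-CLIP cluster reads on each SR gene (x axis) in rpm (y axis, log scale) for S34F cytoplasm, WT cytoplasm and WT chromatin; bars are 95% exact binomial intervals, and the open triangle is the upper limit for SRSF10, which had no S34F cluster. SRSF5 and SRSF2 stand higher with S34F than with WT protein in cytoplasm, SRSF7 and SRSF11 lower, and SRSF1 and SRSF7 lead in chromatin.

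In cytoplasm, ratios of S34F over WT protein ran in both directions among the members. SRSF5 had 609 reads in 15 clusters with S34F, or 925 rpm, against 80 reads in 6 clusters with WT, or 152 rpm, a log2 ratio of 2.61 (95% counting interval 2.27 to 2.94). SRSF2 had 906 rpm with S34F against 222 with WT (2.03, 1.74 to 2.31). SRSF7 had 111 rpm with S34F against 511 with WT (-2.20, -2.58 to -1.83), and SRSF11 had 269 with S34F against 646 with WT (-1.26, -1.53 to -1.0). These 4 were the members past 2-fold, 2 in each direction, among 9 compared, beside 16.6% of 4801 genes at least 2-fold higher and 35.0% at least 2-fold lower with S34F. The median was -0.58 for the members and -0.40 for all genes.

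The remaining cytoplasmic values were closer. SRSF1 had 866 rpm with S34F against 625 with WT (0.47), SRSF4 had 234 against 213 (0.14), SRSF6 had 299 against 449 (-0.58), SRSF3 had 242 against 373 (-0.62) and SRSF9 had 109 against 179 (-0.71). For SRSF4 the counting interval, -0.21 to 0.49, included 0. SRSF10 had no S34F cluster, which allows up to 5.61 rpm by the exact interval, and 19.0 rpm with WT from 10 reads in 1 cluster.

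Between compartments of the WT protein, 4 members had at least 2-fold fewer rpm in cytoplasm than in chromatin and 1 at least 2-fold more, beside 25.8% and 29.4% of 6220 genes. SRSF5 had 152 rpm in cytoplasm against 388 in chromatin (-1.35), SRSF4 had 213 against 501 (-1.24), SRSF7 had 511 against 1081 (-1.08) and SRSF1 had 625 against 1271 (-1.02). SRSF6 was higher in cytoplasm, with 449 rpm against 246 in chromatin (0.87, 95% counting interval 0.67 to 1.07). SRSF2 had 222 rpm in cytoplasm against 408 in chromatin (-0.88), SRSF3 had 373 against 386 (-0.05), SRSF9 had 179 against 149 (0.26) and SRSF11 had 646 against 582 (0.15). The counting intervals of SRSF3, SRSF9 and SRSF11 included 0. The 1 member at least 2-fold higher in cytoplasm was SRSF10, with 19.0 rpm against 3.60 in chromatin. That ratio rests on 10 and 17 reads, and the 1 chromatin cluster of SRSF10 lies on an unplaced contig.

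Member clusters had larger shares in 3′ UTRs than the clusters of all genes in each list. The shares of member clusters there were 32.0% with S34F in cytoplasm, 34.1% with WT in cytoplasm and 25.0% in WT chromatin, against 17.3%, 15.1% and 5.82% of all clusters. Clusters annotated to a stop codon made up 6.00% of member clusters in S34F cytoplasm, 1.18% in WT cytoplasm and 4.31% in WT chromatin, against 0.843%, 0.958% and 1.20% of all clusters. Coding exons held 12%, 16.5% and 15.1% of member clusters in these lists, against 26.5%, 32.5% and 32.6% of all clusters. Clusters of 1 gene share its transcript, so these shares are descriptions without a test.

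**Figure D5:**
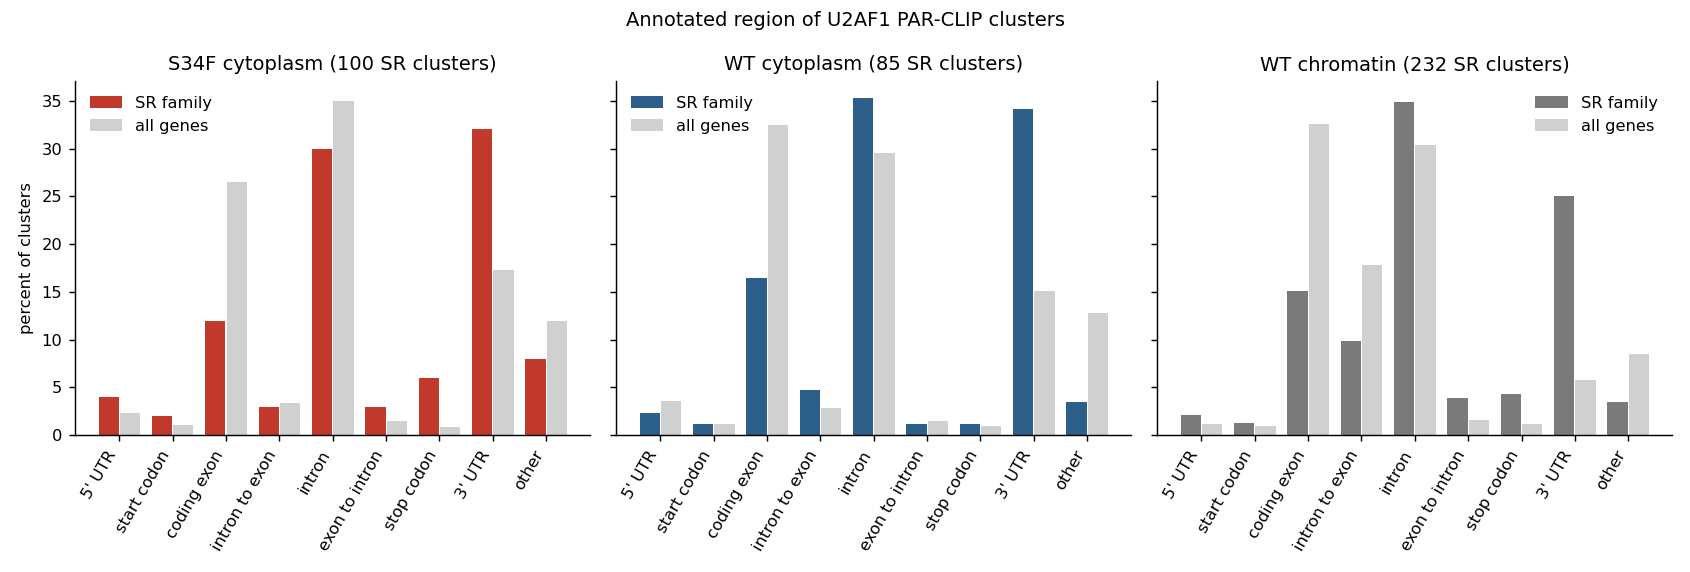
Percent of U2AF1 PAR-CLIP clusters (y axis, linear, from 0) in each annotated region (x axis) for the SR family and for all genes, in S34F cytoplasm, WT cytoplasm and WT chromatin. The 3′ UTR bars of the family stand at 25.0% to 34.1%, above those of all genes at 5.82% to 17.3%, and the coding exon bars stand below.

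The 3′ UTR reads were spread unevenly over the genes. SRSF2 had 79.9% of its reads there in S34F cytoplasm, from 11 clusters, 75.2% in WT cytoplasm and 38.6% in WT chromatin. SRSF1 had 57.0%, 62.6% and 40.7% in the same lists, whereas SRSF7 had 12.3%, 27.1% and 2.98%. SRSF4 had no 3′ UTR cluster in either cytoplasm list and 7.09% of its chromatin reads there.

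Clusters that ran from an intron into an exon made up 23 of 232 member clusters in chromatin, or 9.91%, against 17.8% of all chromatin clusters. Among these 23, an AG with at least 6 C or T among the 8 bases before the base that precedes it was found in 18, or 78.3%, against 62.1% of such clusters of all genes. The base before that AG was C in 9, T in 8 and A in 1. These are 50% C and 44.4% T, against 50.9% C and 32.9% T in such clusters of all genes. Such clusters with the layout lay on 7 members, and the stretch around the AG is shown for the one with the most reads on each, since U2AF1 is known to bind an AG of this kind at the end of an intron. An AG that meets the rule need not be the splice site. The stretches run 5′ to 3′ in the sense of the transcript with the AG in capitals, at positions taken from the PAR-CLIP files. Their genome build is not given in the sources used here.

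SRSF3, chr6:36568909-36568938, + strand: tttcctgtttctgcttttAGatctccaaga
SRSF4, chr1:29487020-29487049, - strand: ttttctttgctctcttctAGatatggtttt
SRSF5, chr14:70235301-70235330, + strand: gtcttatgcttacattttAGgaatttgagg
SRSF6, chr20:42089139-42089164, + strand: gtttttctcctaatAGgtctcgatct
SRSF7, chr2:38975756-38975785, - strand: agatcacattctcgatccAGaggaaggcga
SRSF9, chr12:120903581-120903603, - strand: ttgttttttttAGagatgcagag
SRSF11, chr1:70694088-70694114, + strand: atttgtttattttttAGtgattcgcct

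The SRSF3 and SRSF11 clusters were the ones with the most reads on their genes in chromatin, with 531 reads or 29.1% for SRSF3 and 430 reads or 15.6% for SRSF11. The SRSF4 cluster held 319 reads and the SRSF5 cluster 320 reads, also the most on their genes, and the SRSF7 cluster held 674 reads. The SRSF5 site recurred with S34F protein in cytoplasm, where its cluster at chr14:70235308-70235383 held 157 reads or 25.8% of the reads of the gene, the most of any SRSF5 cluster there, and 8 reads with WT protein in cytoplasm. The SRSF3 site recurred with WT protein in cytoplasm, with 27 reads, and the SRSF6 site with S34F protein in cytoplasm, with 14 reads.

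SRSF2 had 936 reads, 48.5% of its chromatin reads, in an intron to 3′ UTR cluster at chr17:74731191-74731258 that begins with ctttcttttcaaacctAGatgtatcggcaa and has its first AG in capitals. No AG of that cluster meets the rule. SRSF7 had 832 reads, 16.3% of its reads, in a cluster annotated to a stop codon at chr2:38976373-38976500, where the stretch that meets the rule, at chr2:38976464-38976493, reads ttcaggtttcttcgtttgAGtcagtcgcct. The SRSF1 cluster with the most reads, 863, was annotated to the 3′ UTR at chr17:56082359-56082416, and its stretch at chr17:56082393-56082416 reads gtgtctttctgtAGacatatctga. That site recurred with S34F protein in cytoplasm, where a cluster over it held 97 reads.

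Sites that recurred between lists were counted by overlap. Of the 100 S34F cytoplasm clusters, 20 overlapped a WT cytoplasm cluster by at least 1 base, and of the 85 WT cytoplasm clusters 20 overlapped an S34F cluster. These are 20% and 23.5% of the member lists, against 9.41% and 10.2% of all clusters. With WT chromatin, 38 S34F cytoplasm clusters and 27 WT cytoplasm clusters overlapped, which are 38.0% and 31.8%, against 21.3% and 18.2% of all clusters. Clusters of 1 gene share its coverage, so these shares too are given without a test.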

How the data were processed

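Polysome tables held expected counts per gene, deposited by the authors. The RIP tables held expected counts and RPKM per gene, both deposited by the authors. For each PAR-CLIP cluster the authors deposited a read count and the fraction of T-to-C conversion, with replicates A and B pooled per the labels. TopHat is named in the submitters' processing notes; counting program, cluster caller, genome build and use of strand are not given in the sources used here.

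The 10 members and all gene lists were chosen with earlier results of these data known. Of rows sharing a symbol only the first was kept, which dropped 45 polysome rows and 119 RIP rows. A further 28 polysome rows whose names had become dates were left out. CPM came from unrounded counts, which were not whole for 57.4% of polysome and 26.2% of RIP values. Tests used rounded counts in edgeR 4.0.16 (filterByExpr, TMM, quasi-likelihood test) under R 4.3.3, with an adjusted p under 0.05 as the threshold, and DESeq2 1.42.0 as an alternative. All 10 members passed the filter in both assays. The line was a block because same-numbered libraries come from the same cell line: deviations of libraries of 1 line had a median correlation of 0.31 in the polysome table (84 pairs) and 0.06 in the RIP tables (9 pairs). The lines are the only replicates, so p-values measure the spread between these libraries, which differ in genotype. Python 3.11.15 with pandas 2.3.3, numpy 2.4.6, scipy 1.17.1 and matplotlib 3.10.9 gave the levels, exact (Clopper-Pearson) 95% intervals and plots. The fit was tested on simulated counts. The rule for named genes took all members and at most 4 called SR-related genes of largest fold per comparison. Not every member has its values printed for every comparison. The index used genes with at least 500 counts in each line, profile and line shares used genes at a mean of 5 CPM or more, and PAR-CLIP ratios used genes with at least 20 reads over both lists. Alternatives were other scaling, filter, test, block, libraries and cluster minima.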

Additional observations from a re-analysis of the deposited data

Results flagged for a closer look

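For some members the log2 ratio in S34F or FS had the opposite sign to that in WT. Each line had 1 library of a kind, so none of these 27 differences was tested, and each value below is the log2 ratio of the line minus that of WT. The share of all genes with such opposite signs was not computed, and a small ratio can take either sign.

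For 8-10 ribosomes over monosomes, SRSF2 was above 0 in S34F and FS and below 0 in WT, with differences of 1.24 (S34F) and 0.64 (FS), and SRSF10 likewise with 0.73 (S34F) and 0.39 (FS). The ratio of SRSF10 in FS was only 0.0049, from 99.1 CPM in the 8-10 fraction and 98.8 CPM in monosomes. SRSF11 differed by 1.54 and SRSF6 by 0.70 in S34F, each above 0 in S34F and below 0 in WT. SRSF5 differed by -0.36 in FS, where it was below 0.

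For IP over IgG, SRSF11 differed by -3.77, SRSF9 by -3.73, SRSF7 by -1.27 and SRSF6 by -0.40 in S34F, all below 0 there and above 0 in WT. SRSF10 was below 0 in S34F and FS, with differences of -1.40 and -1.45. SRSF1 was above 0 in both, with 0.67 (S34F) and 0.97 (FS). The SRSF11 value in S34F rests on 3 counts in IP.

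For IP over Cytosol, SRSF11 differed by -4.93, SRSF7 by -1.45, SRSF6 by -0.57 and SRSF1 by -0.44 in S34F. The ratio of SRSF1 in S34F was only -0.0012, from 89.0 CPM in IP and 89.1 CPM in Cytosol. SRSF3 differed by -0.76 in S34F and -0.80 in FS, SRSF4 by 0.36 in S34F and 0.43 in FS, and SRSF10 by 0.94 in S34F and 1.49 in FS. In FS, SRSF7 differed by -0.41 and SRSF9 by 0.36.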

How the results depend on the processing

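No called member changed sign in the alternatives run. Without the line as a replicate block, the genes called were 5248 (7958 with it) for 8-10 ribosomes over monosomes, 3154 (5350) for 6-7 over 2-3, 3 (500) for 2-3 over monosomes, 2216 (4627) for 8-10 over 7, 32 (156) for IP over IgG and 36 (62) for IP over Cytosol; members higher were 1 in place of 2 at 6-7 over 2-3 and 1 in place of 3 at 8-10 over 7. Members lower at 6-7 over 2-3 were 1 in place of 0, SRSF5, with DESeq2 size factors, with DESeq2 and with only the libraries compared. Members higher at 8-10 over 7 were 5 with no filter, with DESeq2 and with only the libraries compared. For 2-3 ribosomes over monosomes, 797 genes were called with no filter, 1094 by DESeq2, 824 with only the libraries compared and 307 without the FS library of 3 ribosomes, which left 4403 called at 8-10 over 7. For IP over IgG, 352 were called with no filter, 636 by DESeq2 and 248 without genes with isolated zeros. For IP over Cytosol, 153 were called with no filter, 142 by DESeq2 and 104 with only the libraries compared. For IgG over Cytosol (79), 197 were called with no filter and 223 by DESeq2. The causes were not tested.

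Leaving out 1 line at a time gave 3 to 5 members higher at 8-10 ribosomes over monosomes, 0 to 2 higher and 0 to 1 lower at 6-7 over 2-3, and 1 to 4 higher at 8-10 over 7. All genes called ranged over 5655 to 6248, 2385 to 4925, 0 to 313 (2-3 over monosomes) and 2607 to 3990 (8-10 over 7). For RIP they ranged over 17 to 207 (IP over IgG), 48 to 58 (IP over Cytosol) and 62 to 139 (IgG over Cytosol). Without monosomes the median index of the members was 5.75, against 5.15 with them, as the lowest fraction is then 2 ribosomes. With clusters of at least 0.2 T-to-C fraction, the family's log2 ratio of WT cytoplasm over WT chromatin was -0.48, against -0.57. SRSF1 is itself a gene with an isolated zero and has no value without such genes. Adjusted p of SRSF4 for IP over IgG ranged from 0.0526 to 0.508. Depth limits SRSF11 in RIP-seq and SRSF10 in PAR-CLIP, with 0 to 17 reads per list.

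In 43 cases a member that was not called in either fit changed sign. At 8-10 ribosomes over monosomes SRSF6 was -0.056 with DESeq2 size factors and with DESeq2, -0.024 without the replicate block and -0.043 with only the libraries compared. When 5 to 8-10 ribosomes were set against 1 and 2, SRSF2 was -0.078, SRSF5 -0.22, SRSF6 -0.41, SRSF10 -0.13 and SRSF11 -0.29. At 6-7 over 2-3 SRSF10 was -0.079 with DESeq2 size factors, -0.078 with DESeq2, -0.029 with no filter and -0.058 with only the libraries compared. At 2-3 over monosomes SRSF3 was -0.022 with DESeq2 size factors, -0.021 with DESeq2, -0.041 with only the libraries compared and -0.0018 without the FS library of 3 ribosomes, where SRSF1 was 0.15.

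With 1 line left out, sign changes occurred in the following ranges. For 8-10 ribosomes over monosomes, SRSF6 ran from -0.10 to 0.21. For 6-7 over 2-3 ribosomes, SRSF2 ran from -0.16 to 0.24, SRSF4 from -0.053 to 0.19, SRSF6 from -0.41 to 0.022 and SRSF10 from -0.33 to 0.13. For 2-3 ribosomes over monosomes, SRSF1 ran from -0.51 to 0.15 and SRSF3 from -0.080 to 0.12. For IP over IgG, SRSF1 ran from -0.034 to 0.53, SRSF6 from -0.31 to 0.27, SRSF9 from -0.56 to 1.09, SRSF10 from -0.55 to 0.016 and SRSF11 from -0.75 to 2.12. For IP over Cytosol, SRSF3 ran from -0.16 to 0.21, SRSF6 from -0.17 to 0.11 and SRSF10 from -0.27 to 0.57. For IgG over Cytosol, SRSF1 ran from -0.017 to 0.71, SRSF2 from -0.66 to 0.12, SRSF3 from -0.42 to 0.016, SRSF5 from -0.079 to 0.42, SRSF6 from -0.36 to 0.16, SRSF10 from -0.28 to 1.12 and SRSF11 from -0.12 to 1.02.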
